A study of Homo sapiens with 6 samples.

Results

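The lysophospholipid receptors and enzymes described here are 10 genes of the 58735 in the count table: the lysophosphatidic acid (LPA) receptors LPAR1, LPAR2, LPAR3 and LPAR6, the sphingosine 1-phosphate (S1P) receptors S1PR1, S1PR2 and S1PR3, and the enzymes SPHK1, ENPP2 and PLPP3. They were picked by gene name as receptors of these lipids or enzymes that make or clear them. Polyadenylated RNA had been sequenced from parent MDA-MB-231 cells (3 libraries), an established triple-negative breast cancer line, and from their Adriamycin-resistant derivative, called ADRr (3 libraries). The ADRr line was selected by stepwise exposure to Adriamycin (ADR, doxorubicin), and single clones were then isolated by limiting dilution. A difference between ADRr and parent therefore joins resistance with whatever else sets that derived line apart, and these cannot be told apart here. The dose of ADR at harvest and the time points mentioned in the series record are not given for the 6 libraries. Nothing in the labels states that the 3 libraries of a group came from separate cultures, so p-values measure the spread between these libraries, which may be technical.

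LPA and S1P are small signalling lipids that act outside the cell through G protein-coupled receptors. LPA receptors couple to the Gi, Gq and G12/13 classes of G protein and drive cell migration and cytokine release, and in breast cancer LPAR1 is known for its part in motility and bone metastasis. S1PR1 couples to Gi and supports migration, S1PR2 acts strongly through G12/13 and often restrains migration, and S1PR3 couples to several G proteins. ENPP2 (autotaxin) is the secreted lysophospholipase D that makes most extracellular LPA, SPHK1 phosphorylates sphingosine to S1P, and PLPP3 is a surface phosphatase that removes the phosphate from both lipids. The study places LPAR1 upstream of moesin (MSN) in a pathway with interleukin 6, which is why the LPA receptors are of interest in this pair of lines.

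The libraries held between 15983985 and 18272314 counted reads. Levels within a gene are given as CPM, the counts scaled to library size with edgeR's trimmed-mean (TMM) factors, and levels between genes as FPKM, which divides by gene length. The transcriptomes differed widely: of 15242 genes with enough counts to be tested, 4451 were called higher in ADRr (29.2%) and 4507 lower (29.6%), by edgeR's quasi-likelihood test with a call needing a Benjamini-Hochberg adjusted p no larger than 0.05 and a change of 1.2-fold or more. Every ADRr library lay above every parent library in 34.5% of the tested genes and below in 34.7%. The MDA-MB-231 markers VIM, CD44, AXL and CAV1 were abundant in all 6 libraries. Of these 4, 3 were called lower in ADRr and 1 higher. The estrogen receptor gene ESR1 had 0 or 1 counts and the progesterone receptor gene PGR had 0. The other 4 of 6 luminal breast markers were expressed, with EPCAM called higher, ERBB2 and CDH1 lower and GATA3 not called, and the 6 together held 167 to 192 CPM in parent and 108 to 116 CPM in ADRr. Leukocyte markers were at or near 0, with TYROBP at 0 counts in every library.

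Of the 8 members that could be tested, 4 were called higher in ADRr (S1PR1, S1PR2, S1PR3 and SPHK1) and 4 lower (LPAR1, LPAR2, ENPP2 and PLPP3). The 3 S1P receptors among the members thus rose, S1PR2 with the largest adjusted p, and both testable LPA receptors fell. The median log2 fold change of the 8 was 0.03, against -0.01 over all tested genes. On CPM, 3 of the 8 tested members had every ADRr library above every parent library, 4 had every one below, and S1PR2 overlapped. Over all tested genes the shares above and below were 34.5% and 34.7%. LPAR6, which was not tested, also lay above, on 0 to 4 counts per library. LPAR3 and LPAR6 had too few counts for the test. S1PR3 passed the low-count filter through its ADRr libraries alone, and ENPP2 through its parent libraries alone. In bulk RNA a change in the share of cells that express a gene and a change in RNA per cell cannot be told apart.

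**Figure D1:**
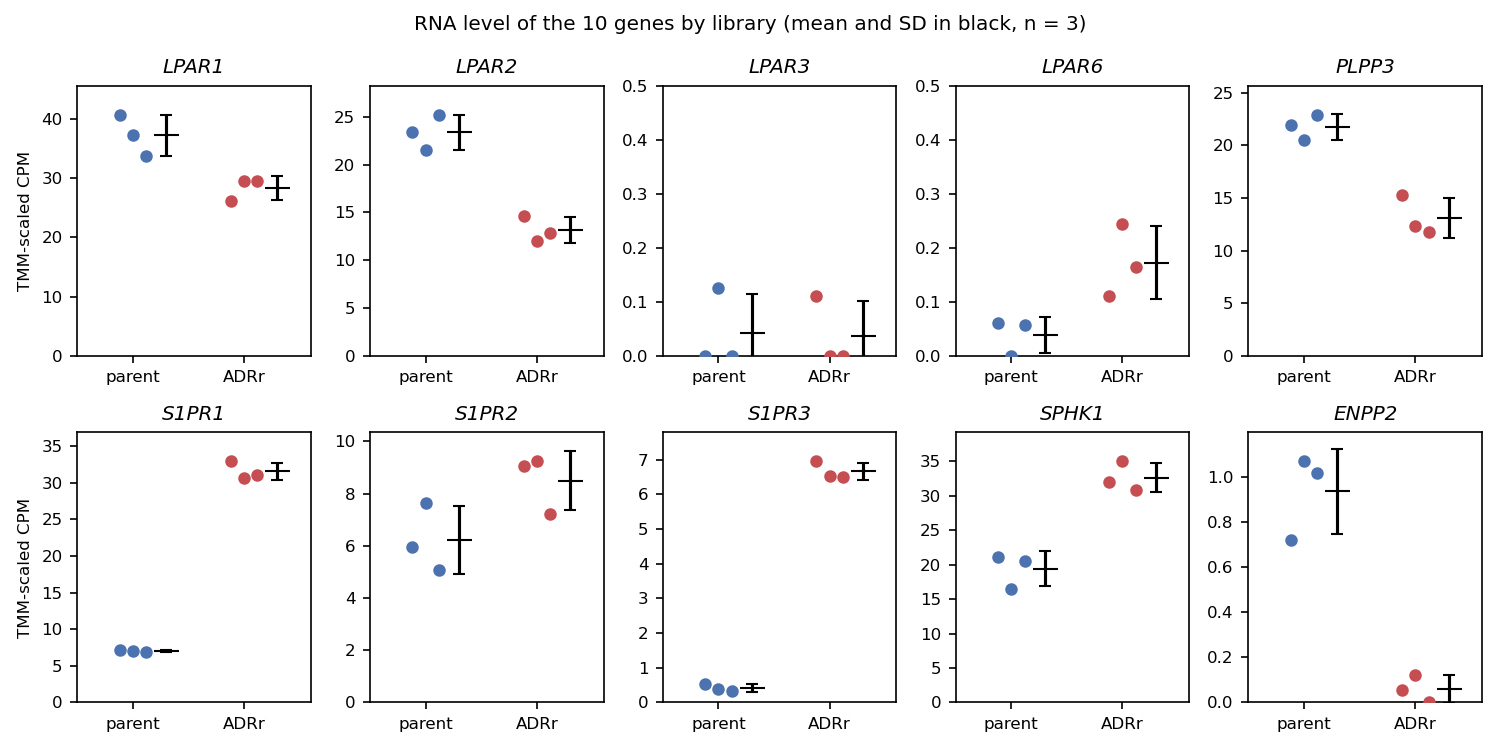
RNA level of each of the 10 genes in TMM-scaled CPM (vertical axes start at 0 and differ between panels). Dots are the 3 parent (blue) and 3 ADRr (red) libraries, and the black mark and bar are the mean and SD of 3, cut at 0. The S1PR1 and S1PR3 groups are far apart, the S1PR2 groups overlap, and LPAR3 and LPAR6 reach at most 0.244 CPM in any library.

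Sequence from before the listed start sites of 4 receptors is shown here because these receptors carry the main contrast: S1PR1, S1PR2 and S1PR3, which rose, and LPAR2, which fell the most of the tested LPA receptors. The bases come from the RefSeq window table on GRCh38.p14, which matched 9 of the 10 members, and are printed 5′ to 3′ on the strand of the gene, without any base that lies in an annotated exon. The S1PR1 stretch of 96 bases therefore ends 154 bases before the listed start and the LPAR2 stretch of 188 bases 19 bases before it, while the S1PR2 and S1PR3 stretches are whole windows of 250 bases. Capitals mark matches, on either strand, to any of 6 motifs: the AP-1 motif TGANTCA, the GC box GGGCGG, the motif CCAAT, the TATA box TATAAA, the STAT motif TTCNNNGAA and the NF-kB motif by its name. The S1PR1 stretch is chr1:101236769-101236864 (plus strand), S1PR2 is chr19:10231332-10231581 (minus strand), S1PR3 is chr9:88990613-88990862 (plus strand, the first of 2 listed starts) and LPAR2 is chr19:19628240-19628427 (minus strand).
S1PR1: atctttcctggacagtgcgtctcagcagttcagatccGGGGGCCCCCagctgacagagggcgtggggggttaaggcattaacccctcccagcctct
S1PR2: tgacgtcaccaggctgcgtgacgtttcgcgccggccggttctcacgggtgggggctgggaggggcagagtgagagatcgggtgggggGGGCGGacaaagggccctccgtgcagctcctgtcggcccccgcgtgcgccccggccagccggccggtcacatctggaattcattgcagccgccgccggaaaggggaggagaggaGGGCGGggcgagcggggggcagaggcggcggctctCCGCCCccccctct
S1PR3: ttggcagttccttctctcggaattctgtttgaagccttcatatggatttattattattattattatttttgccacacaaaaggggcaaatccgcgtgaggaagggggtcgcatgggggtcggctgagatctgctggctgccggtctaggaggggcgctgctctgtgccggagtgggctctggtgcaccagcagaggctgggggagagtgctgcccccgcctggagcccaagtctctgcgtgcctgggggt
LPAR2: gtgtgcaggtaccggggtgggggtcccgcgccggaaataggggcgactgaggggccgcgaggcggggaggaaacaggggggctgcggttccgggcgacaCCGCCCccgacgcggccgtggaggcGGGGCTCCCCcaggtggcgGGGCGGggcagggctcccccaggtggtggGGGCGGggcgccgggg

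The S1PR1 stretch held 1 match to the NF-kB motif, which 9.96% of all 35116 windows of 250 bases hold; this share is for whole windows, not shorter stretches. An NF-kB match also stood in the LPAR2 stretch, so a receptor that rose and one that fell both carry it. The S1PR2 and LPAR2 stretches each held 3 GC boxes, a motif found in 42.6% of windows, and the S1PR3 stretch held none of the 6 motifs. The window at the other S1PR3 start held 8 GC boxes. Over all windows, AP-1 matched in 6.57%, the STAT motif in 6.57%, the TATA box in 10.7% and CCAAT in 32%. These matches describe the letters only.

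LPAR1 (ENSG00000198121, minus strand of chromosome 9, 110873263 to 111038458) was the most abundant of the 10 genes per length in parent cells. Its level was 40.7, 37.3 and 33.7 CPM in the 3 parent libraries and 26.1, 29.5 and 29.6 CPM in the 3 ADRr libraries. Every ADRr library was below every parent library. The log2 fold change was -0.39 (SE 0.088, 95% interval -0.57 to -0.21, adjusted p = 0.00047 by edgeR), or 23.7% less when taken from that fit as a drop from parent. LPAR1 fell in all 15 alternative settings and replicate omissions, by 0.32 to 0.46 on the log2 scale.

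LPAR2 (ENSG00000064547, minus strand of chromosome 19, 19623668 to 19628930), the other LPA receptor with substantial RNA, fell further. Parent libraries held 23.4, 21.5 and 25.2 CPM and ADRr libraries 14.6, 12 and 12.9 CPM, with no overlap. The log2 fold change was -0.83 (SE 0.1, interval -1.04 to -0.61, adjusted p = 3.3e-07 by edgeR), so that the parent level was 1.77 times the ADRr level. Both LPA receptors fell, while the ratio of LPAR1 to LPAR2 in FPKM went from 1.15 ± 0.165 (SD, n = 3) in parent to 1.56 ± 0.25 (SD, n = 3) in ADRr. By an exact two-sided permutation test this ratio gave p = 0.1 (adjusted 0.1 over 5 ratios), the smallest value that 3 against 3 libraries allow.

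LPAR3 and LPAR6 were near the limit of detection in both lines. LPAR3 had 0, 2 and 0 counts in parent and 2, 0 and 0 in ADRr. LPAR6 had 1, 0 and 1 counts in parent and 2, 4 and 3 in ADRr, where 3 counts correspond to between 0.164 and 0.188 CPM. A difference in either gene was not detectable at this depth: the summed LPAR6 counts were 2 and 9, a ratio of ADRr to parent of 4.35 with an exact counting interval of 0.901 to 41.4. Without the low-count filter the edgeR test gave LPAR6 a log2 fold change of 1.93 with an adjusted p of 0.34, and LPAR3 one of -0.09 with an adjusted p of 0.99. LPAR6 lies within the span of RB1 on the opposite strand, with no exonic base shared, and RB1 had 1323 to 1721 counts per library.

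S1PR1 (ENSG00000170989, plus strand of chromosome 1, 101236865 to 101243713), the Gi-coupled S1P receptor, rose the most among members with substantial RNA in both lines. Parent libraries held 7.15, 7.01 and 6.82 CPM and ADRr libraries 32.9, 30.7 and 31.1 CPM. The lowest ADRr library was thus far above the highest parent library. The fold change was 4.51, a log2 fold change of 2.17 (SE 0.1, interval 1.96 to 2.38, adjusted p = 1.6e-14 by edgeR). Over the 15 alternatives the log2 fold change ran from 1.59 to 2.20, the lowest on log2(FPKM + 1), a scale that compresses low levels.

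S1PR3 (ENSG00000213694, plus strand of chromosome 9, 88990863 to 89005010) went from near the limit of detection to a low but clear level. Its counts were 9, 6 and 6 in parent and 125, 107 and 119 in ADRr, which is 0.541, 0.379 and 0.341 CPM against 6.95, 6.54 and 6.49 CPM. The groups did not overlap, and all 3 parent counts were under 10. S1PR3 thus entered the tested genes only through the group where it is high, which limits what its test and rank can show. The fold change was 15.6, the largest rise of the 8 tested members, with a log2 fold change of 3.96 (SE 0.27, interval 3.40 to 4.53, adjusted p = 1.5e-11 by edgeR). With a pseudocount of 1 on FPKM and no filter the log2 fold change shrank to 0.52, and the filter on FPKM removed the gene from the other fits on that unit.

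S1PR2 (ENSG00000267534, minus strand of chromosome 19, 10221433 to 10231331), the receptor that acts strongly through G12/13, had the largest adjusted p of the 8 tested members. Its level was 5.95, 7.64 and 5.06 CPM in parent and 9.06, 9.23 and 7.2 CPM in ADRr, and parent replicate 2 lay above ADRr replicate 3. The log2 fold change was 0.45 (SE 0.16, interval 0.11 to 0.79, adjusted p = 0.02 by edgeR). This call was kept in 8 of 15 alternatives, and the adjusted p reached 0.14. It was lost when parent replicate 1, parent replicate 3, ADRr replicate 1 or ADRr replicate 2 was left out, with log2 fold changes of 0.42, 0.32, 0.41 and 0.39. S1PR2 shares 83 exonic bases (2.28% of its own) with DNMT1 on the same strand, and DNMT1 had 5123 to 8846 counts per library, with lower counts in each ADRr library.

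**Figure D2:**
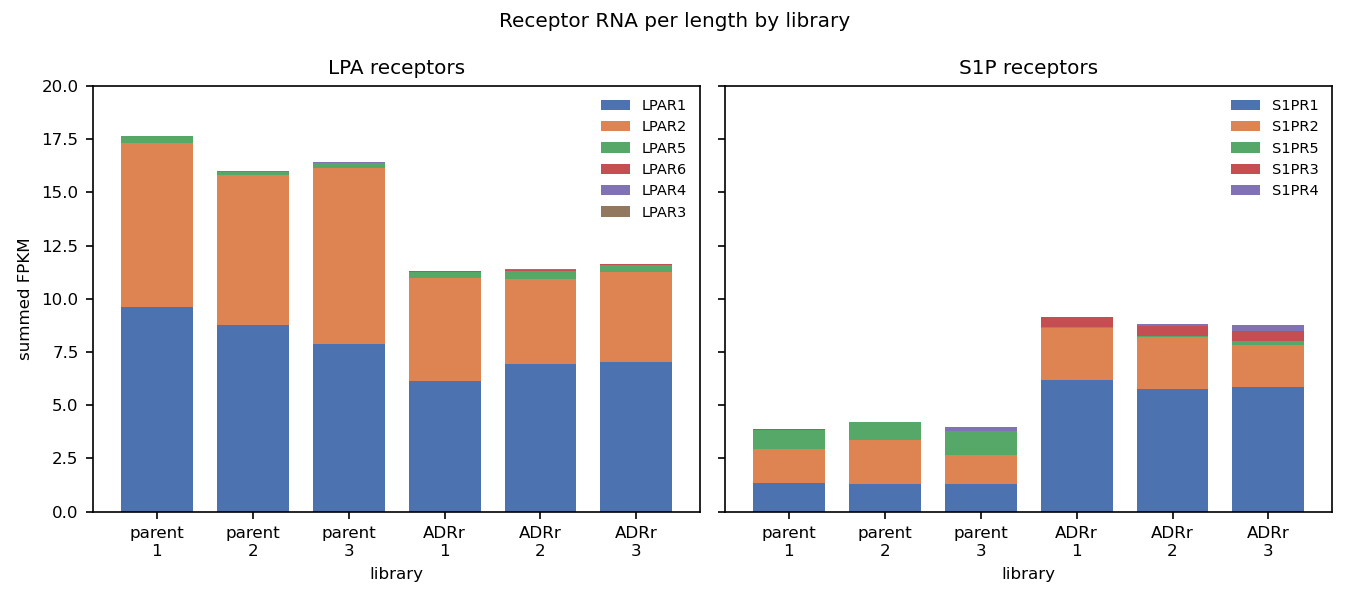
Summed FPKM (vertical axis) of the 6 LPA receptors (left) and the 5 S1P receptors (right), stacked by receptor, in each of the 6 libraries. The LPA receptor sum falls from a mean of 16.7 to 11.4 and the S1P receptor sum rises from 4.04 to 8.92, with S1PR1 taking most of the ADRr bars.

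Set side by side per length, the receptor make-up moved from LPA towards S1P receptors. The summed FPKM of the LPA receptors was 17.7, 16 and 16.4 in parent and 11.3, 11.4 and 11.6 in ADRr. That of the S1P receptors was 3.89, 4.23 and 3.99 in parent and 9.16, 8.83 and 8.77 in ADRr. Neither pair of groups overlapped. On CPM the mean sums were 61.5 for LPA and 16.5 for S1P receptors in parent, and 42.9 and 47.2 in ADRr. Which family led in ADRr therefore depends on the division by length, while the direction of both changes does not. Among S1P receptors the share of S1PR1 was 32.5% ± 1.81 in parent and 66.5% ± 1.29 in ADRr (SD, n = 3). S1PR2 held 41.3% ± 7.24 in parent and 25.6% ± 3.07 in ADRr. Which of the 2 led in parent depends on the division by length, since on CPM S1PR1 had 42.5% and S1PR2 37.5%. S1PR3 held 0.755% ± 0.217 and 5.4% ± 0.077. Among LPA receptors the share of LPAR1 was 52.4% ± 3.71 and 58.6% ± 3.65, and its range in parent, 48.2% to 54.7%, overlapped that in ADRr, 54.4% to 61%.

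The ratio of S1PR1 to LPAR1 in FPKM was 0.14, 0.15 and 0.161 in parent and 1.01, 0.828 and 0.836 in ADRr. S1PR1 RNA was thus a small part of LPAR1 RNA in parent cells and close to it in ADRr cells. The ratio of S1PR1 to S1PR2 was 0.806 ± 0.153 and 2.62 ± 0.354 (SD, n = 3). Both ratios had p = 0.1 by the exact permutation test (adjusted 0.1), the smallest it can give.

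S1PR5, an S1P receptor outside the 10 genes, moved the other way. It had 43, 38 and 57 counts in parent and 1, 1 and 12 in ADRr. All ADRr libraries were below all parent libraries, but ADRr replicate 3 stood well above the other two. The log2 fold change was -3.34 (SE 0.5, adjusted p = 3.3e-06 by edgeR) and -5.39 without ADRr replicate 3. Its share of the summed S1P receptor FPKM was 23.8% ± 4.29 in parent and 1.02% ± 1.38 in ADRr. S1PR4 had 0 to 8 counts per library, LPAR4 0 to 2, and LPAR5 (7 to 21 counts) did not pass the test, with a log2 fold change of 0.61 and an interval of -0.23 to 1.44. The 4 receptors of other lysophospholipids in the list (GPR34, P2RY10, GPR174 and GPR55) had too few counts to be tested.

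ENPP2 (ENSG00000136960), which encodes autotaxin, was low in parent cells and near 0 in ADRr cells. It had 12, 17 and 18 counts in the parent libraries and 1, 2 and 0 in the ADRr libraries. ENPP2 thus entered the tested genes only through the parent group, where it is higher. Parent libraries together held 47 counts and ADRr libraries 3, a ratio of 16.2 with an exact counting interval of 5.21 to 81.3, which covers counting error only. The edgeR log2 fold change of -3.88 (SE 0.69, adjusted p = 3.4e-05) depends on how low counts are handled. Per length ENPP2 was 0.137 FPKM in parent, far below LPAR1 at 8.76 FPKM. On log2(FPKM + 1) without a filter its difference was -0.17, under the fold threshold.

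SPHK1 (ENSG00000176170, plus strand of chromosome 17, 76376584 to 76387860), the kinase that makes S1P, rose. Parent libraries held 21.1, 16.5 and 20.6 CPM and ADRr libraries 32, 35 and 30.9 CPM, without overlap. The fold change was 1.68, a log2 fold change of 0.75 (SE 0.098, interval 0.54 to 0.95, adjusted p = 5.8e-07 by edgeR). SPHK2, the second sphingosine kinase, fell, with a log2 fold change of -0.77 (SE 0.094, adjusted p = 2.2e-07 by edgeR). Their ratio in FPKM, SPHK1 to SPHK2, was 0.898, 0.822 and 0.852 in parent and 2.29, 2.68 and 2.4 in ADRr (exact permutation p = 0.1, adjusted 0.1). SPHK1 shares 59 exonic bases (1.34%) with PRPSAP1 on the opposite strand, and SPHK2 shares 11.3% of its exonic bases with its opposite-strand neighbour AC022154.1 and 11% with DBP, both of low count, and 4.09% with RPL18, which had 5156 to 8563 counts per library.

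PLPP3 (ENSG00000162407, minus strand of chromosome 1, 56494747 to 56645301), the phosphatase that clears both lipids, fell. Its level was 21.9, 20.5 and 22.9 CPM in parent and 15.3, 12.3 and 11.8 CPM in ADRr, and the groups did not overlap. The log2 fold change was -0.73 (SE 0.11, interval -0.96 to -0.50, adjusted p = 3.7e-06 by edgeR). Its paralogues PLPP1 and PLPP2, named here after their values were seen, rose by 0.35 and 0.47 on the log2 scale (adjusted p = 0.0039 and 1.5e-06 by edgeR). PLPP1 shares 23.9% of its exonic bases with MTREX on the opposite strand, and PLPP3 shares 10.9% with AC119674.2, which had 1 to 5 counts per library. The ratio of PLPP3 to PLPP1 in FPKM was 0.545 ± 0.0371 in parent and 0.257 ± 0.0461 in ADRr (SD, n = 3, exact permutation p = 0.1, adjusted 0.1).

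In the order of levels per length, parent cells ran LPAR1 at 8.76, LPAR2 at 7.68, SPHK1 at 4.3, PLPP3 at 4.03, S1PR2 at 1.67 and S1PR1 at 1.31 FPKM. The ranges of LPAR1 and LPAR2 overlapped, as did those of SPHK1 and PLPP3. ADRr cells ran SPHK1 at 7.26, LPAR1 at 6.71, S1PR1 at 5.94, LPAR2 at 4.35, PLPP3 at 2.44 and S1PR2 at 2.29 FPKM. There SPHK1 overlapped with LPAR1, LPAR1 with S1PR1, and PLPP3 with S1PR2. S1PR3 followed at 0.482 FPKM, and LPAR6, LPAR3 and ENPP2 were at the limit of detection. There the range of LPAR3 overlapped those of LPAR6 and ENPP2.

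**Figure D3:**
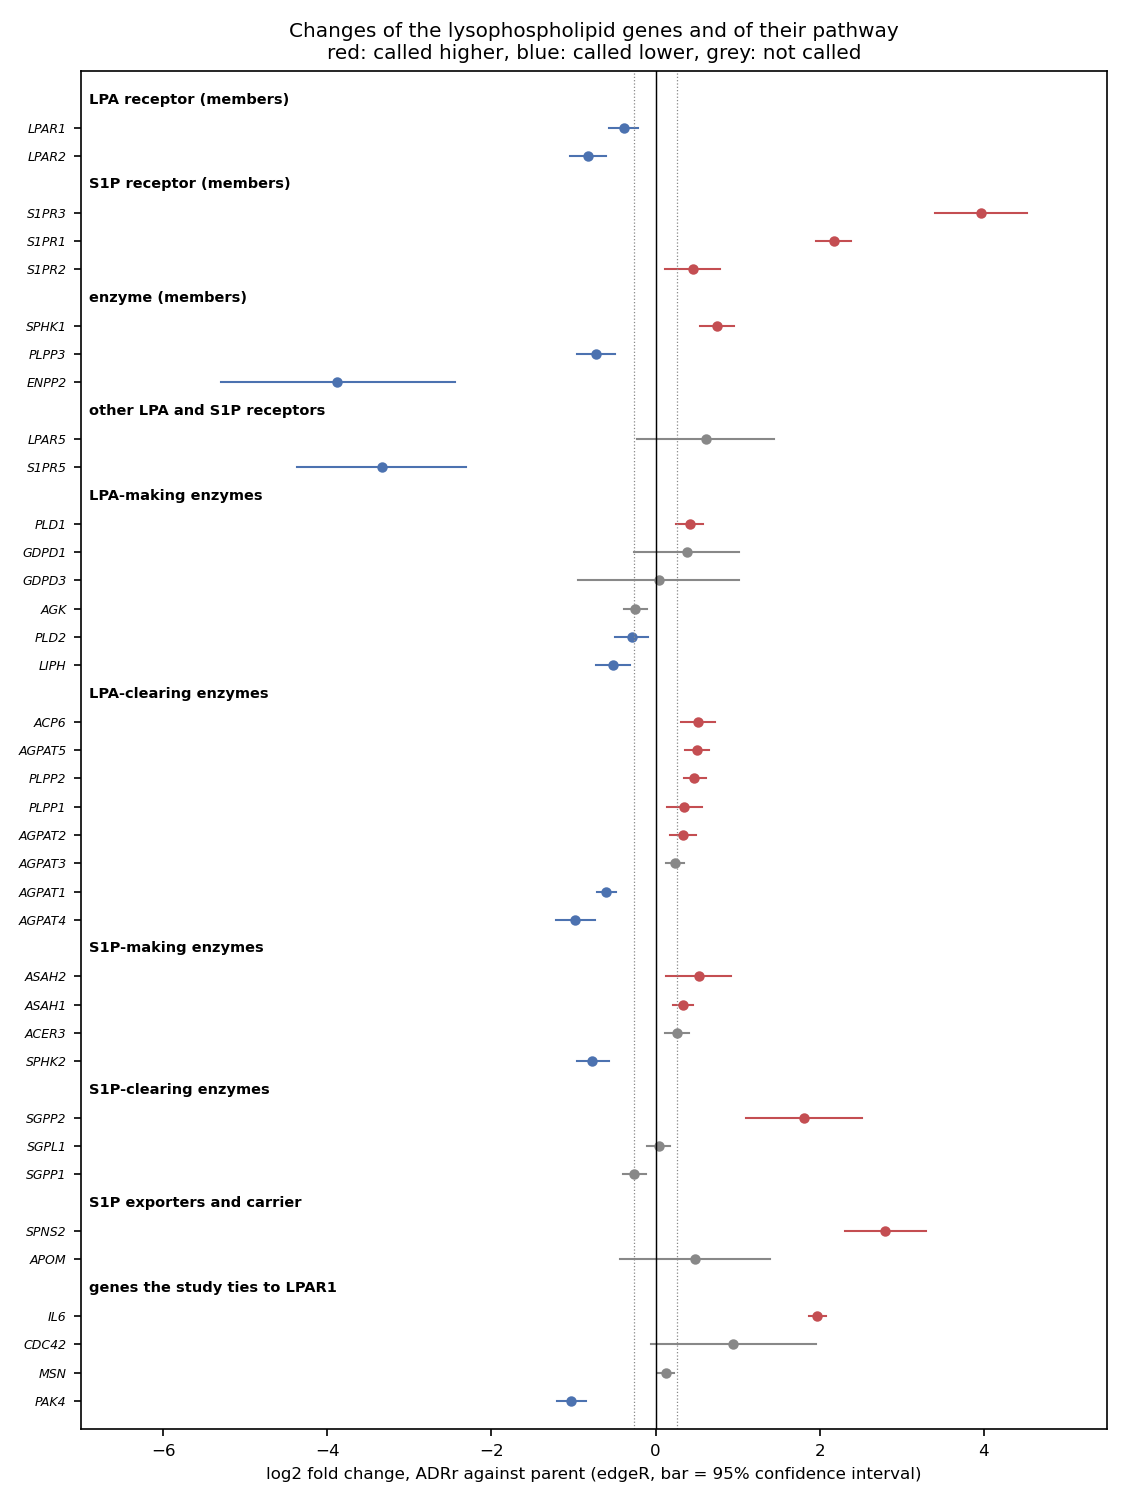
Log2 fold change of ADRr against parent (horizontal axis, edgeR) with its 95% interval for the 8 tested members and the tested pathway genes whose lists are described here, grouped by role. Red marks genes called higher, blue lower and grey neither, and dotted lines mark a fold of 1.2. S1PR3, SPNS2 and S1PR1 lie farthest to the right, and ENPP2 and S1PR5 farthest to the left.

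Among 57 other genes of the pathway, 44 could be tested, of which 15 were called higher, 11 lower and 18 neither, with a median log2 fold change of 0.17. The shares over all tested genes were 29.2% higher and 29.6% lower, so the counts of this list and of the smaller lists that follow are descriptions beside those shares. SPNS2, the S1P exporter, rose from 0.601, 1.33 and 1.42 CPM in parent to 7.89, 7.64 and 8.02 CPM in ADRr, a log2 fold change of 2.80 (SE 0.24, adjusted p = 5.2e-10 by edgeR). SGPP2, a phosphatase that degrades S1P inside the cell, also rose, by 1.81 (SE 0.34, adjusted p = 6.6e-05 by edgeR), from 8 to 14 counts per parent library to 35 to 52 per ADRr library. The other 2 S1P-clearing enzymes, SGPL1 and SGPP1, were not called, with log2 fold changes of 0.04 and -0.26. Of the 4 tested genes listed as S1P-making beside SPHK1, ASAH1 and ASAH2 were higher and SPHK2 was lower. ASAH1 and ASAH2 are ceramidases, which supply sphingosine rather than S1P itself. The ASAH2 groups overlapped on CPM, and its call was kept in 9 of 15 alternatives.

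Of the 6 tested genes listed as LPA-making, 1 was higher (PLD1) and 2 were lower (LIPH and PLD2). PLD1 and PLD2 chiefly make phosphatidic acid rather than LPA itself. LIPH, a phospholipase that makes LPA from phosphatidic acid, fell the most at -0.52 (SE 0.099, adjusted p = 8.2e-05 by edgeR). Of the 8 LPA-clearing enzymes 5 were higher and 2 lower, and AGPAT4, an acyltransferase that turns LPA into phosphatidic acid, had the largest change at -0.98 (SE 0.12, adjusted p = 1.1e-07 by edgeR).

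The RNA of the 4 genes that the study ties to LPAR1 moved in different ways. The study drew its LPAR1 link in lines that included parent MDA-MB-231, so these genes are not independent evidence. It shows no LPAR1 experiment in ADRr cells. IL6, the cytokine, rose from 101, 103 and 95.2 CPM to 398, 385 and 392 CPM, a log2 fold change of 1.97 (adjusted p = 7.1e-19 by edgeR), opposite to LPAR1. PAK4, a kinase activated by CDC42, fell by 1.03 (adjusted p = 2.8e-10 by edgeR). MSN (moesin), which links the membrane to actin, had a log2 fold change of 0.13 with an adjusted p of 0.018 by edgeR, under the fold threshold of 1.2. The study itself reports more MSN protein and more secreted IL-6 in ADRr cells. It also reports more phosphorylated MSN, CDC42 and PAK4 there. Protein and phosphorylation are not measured by the RNA levels given here. CDC42 had 3 to 17 counts per library, and 57.1% of its exonic bases are shared with AL031281.2 on the same strand. Its count is therefore not read here as a measure of its RNA, and the cause of the low count was not tested.

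**Figure D4:**
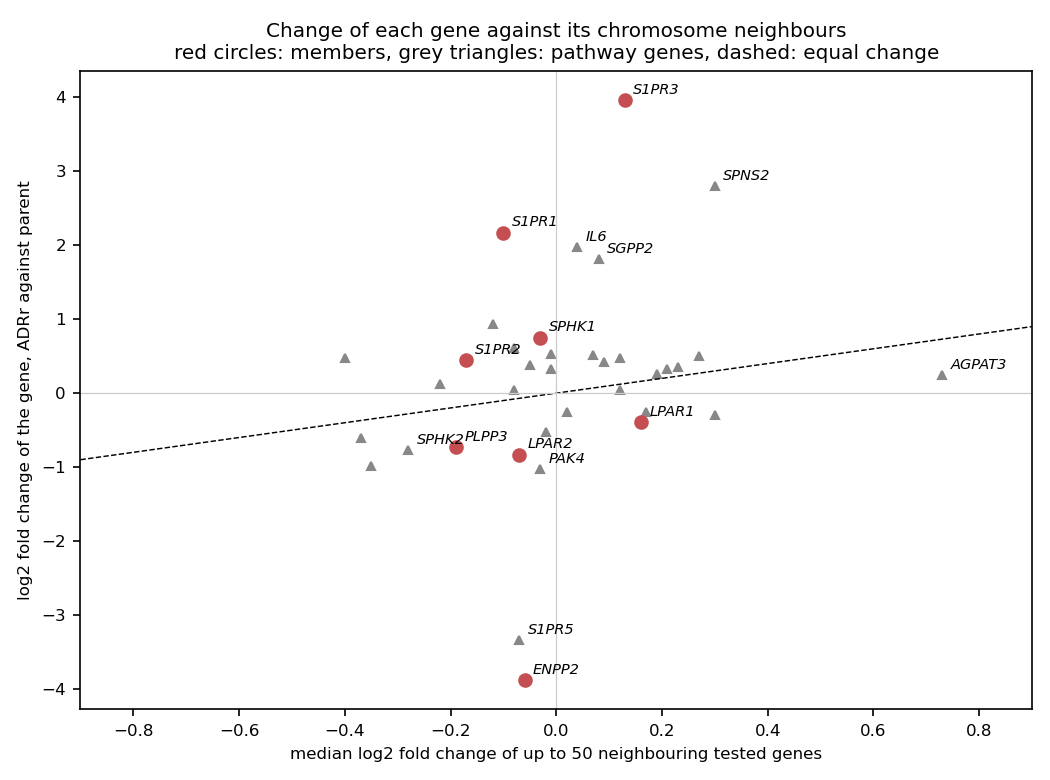
Log2 fold change of each gene (vertical axis) against the median log2 fold change of up to 25 tested genes on each side of it along the chromosome (horizontal axis). Red circles are the 8 members and grey triangles the pathway genes whose lists are described here, and the dashed line marks equal change. The members have neighbour medians between -0.19 and 0.16, and S1PR3, S1PR1 and ENPP2 lie far from the line.

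The change of a member was also set beside that of the 25 tested genes on each side of it along its chromosome. Neighbours of LPAR1 had a median log2 fold change of 0.16, of LPAR2 -0.07, of PLPP3 -0.19 and of SPHK1 -0.03. Those of S1PR1, S1PR2 and S1PR3 had medians of -0.10, -0.17 and 0.13. The difference from the neighbours' median was 3.83 for S1PR3, 2.27 for S1PR1 and -3.82 for ENPP2. A median over many genes tends to lie near 0, while the median absolute log2 fold change of a tested gene was 0.455. Such a difference by itself therefore does not set the members apart from other genes. How many of all tested genes differ from their neighbours in this way was not computed.

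S1PR1 and S1PR3 are also known from endothelial cells, and markers of that type were therefore read beside them. Of 7 endothelial markers 2 could be tested, KDR rose by 1.07 on the log2 scale (adjusted p = 2.9e-05 by edgeR), and PECAM1 had an adjusted p of 0.74. The summed level of the 7 was 3.28 to 5.53 CPM in parent and 9 to 10.1 CPM in ADRr. KDR made up most of this sum, with a mean of 3.82 CPM in parent and 8.08 CPM in ADRr. CDH5, a defining endothelial gene, had 0 to 2 counts in every library, and VWF had 0 in parent and 2 to 7 in ADRr. TIE1 had 0 to 3 counts in parent and 7 to 8 in ADRr, and CLDN5 had 0 to 3 and 2 to 4. TEK went the other way, with 2 to 8 counts in parent and 1 in each ADRr library.

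LPAR1, PLPP3 and ENPP2 are also expressed by fibroblasts. The summed level of 5 fibroblast markers fell from between 65.1 and 69.2 CPM in parent to between 10.6 and 12.4 CPM in ADRr. PDGFRB made up most of it and fell by 2.90 on the log2 scale (adjusted p = 1.2e-17 by edgeR), LUM fell by 0.67 (adjusted p = 0.007 by edgeR), and DCN, a defining fibroblast gene, was at 0 counts in all 6 libraries. The part of these markers in the changes of the receptors and enzymes was not tested.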

How the data were processed

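RNA-seq of 3 parent and 3 ADRr MDA-MB-231 libraries was analysed. Per the study's methods, the CORALL kit was used on poly(A)-selected RNA, paired-end sequencing was done on a NovaSeq, and reads were aligned with HISAT2 and counted with featureCounts. The submitters' processing notes name fastp, HISAT2 2.0.5, featureCounts 1.5.0-p3, DESeq2 1.20.0 and GRCh38. The strand setting is not given in the sources used here, so reads of overlapping genes may be exchanged. The deposited counts are whole read counts per gene without normalization, and the FPKM values were computed by the authors.

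Counts were fitted with edgeR 4.0.16 (R 4.3.3): TMM scaling, filterByExpr, quasi-likelihood test, Benjamini-Hochberg adjustment over all 15242 tested genes. Genes with an adjusted p up to 0.05 that changed 1.2-fold or more were called, after the study's thresholds. The fit was checked on simulated counts. Alternatives used DESeq2 1.42.0, limma 3.58.1 on log2(FPKM + 1) or log2(FPKM + 0.1), other scalings, filters and thresholds, a replicate block, and omission of each library. Ratios were compared by exact two-sided permutation tests (scipy 1.17.1). Intervals cover counting error only where so stated. Libraries of 1 group differed by more than sampling noise (chi-square per degree of freedom 2.6 to 8.51), so none was taken for a repeat deposit of another. Gene positions matched GENCODE 29 for all 95 listed genes.

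All members were named, as were pathway genes that were called with a log2 change of 1 or more either way, the called gene with the largest change in each other list, and the 4 genes tied to LPAR1. The results of 1 of these lists and of 1 marker gene are not reported here. The members and lists were chosen with earlier results of these data known.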

Additional observations from a re-analysis of the deposited data

How the results depend on the processing

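The 8 tested members kept their direction under all alternatives that gave a value. Over omissions of 1 library, LPAR1 ranged from -0.46 to -0.32, LPAR2 from -0.90 to -0.76, S1PR1 from 2.15 to 2.20, S1PR3 from 3.83 to 4.18, SPHK1 from 0.64 to 0.80, ENPP2 from -4.76 to -3.32 and PLPP3 from -0.85 to -0.66 on the log2 scale, each still called. S1PR2 ranged from 0.32 to 0.62 and lost its call in 4 of these 6 omissions, and members called higher then numbered 3 to 4. By limma, S1PR2 had 0.30 on log2(FPKM + 1) (adjusted p = 0.058), 0.44 on log2(FPKM + 0.1) (adjusted p = 0.057) and 0.30 without a filter (adjusted p = 0.14), and ENPP2 had -0.17 (adjusted p = 0.0059) without a filter. On filtered FPKM, 2 members were called higher with either pseudocount, since S1PR3 was not tested and S1PR2 lost its call, and ENPP2 was not tested either. With calls limited to log2 changes of 1.2 or more either way, 1114 genes were called higher and 972 lower, 2 members higher and 1 lower, and 3 pathway genes higher and 1 lower. With the adjusted p alone 19 pathway genes were higher and 17 lower, beside 4992 higher and 5065 lower of all tested genes. Shares from CPM, without division by length, were 60.5% in parent and 66.1% in ADRr for LPAR1, 42.5% in parent for S1PR1, 37.5% in parent and 18% in ADRr for S1PR2, 2.56% and 14.1% for S1PR3 and 16.7% in parent for S1PR5. Same-numbered libraries did not deviate together (correlations 0.00735, -0.0213 and -0.0457), so no sign of pairing by number was seen. With 3 libraries per group this cannot exclude that same-numbered samples were handled together. The replicate block gave 4406 genes higher and 4464 lower, 4 members each way and 0.46 for S1PR2, and changed no member's call. Counts under 10 per library limit LPAR3, LPAR6, the ADRr level of ENPP2 and the parent level of S1PR3, and a minimum of 10 counts in every library leaves S1PR3 and ENPP2 untested, with 3 members higher and 3 lower.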
